A study of Mus musculus with 2 samples.

Results

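Cycling epithelial cells with little Olfm4, a profile sought for crypt cells that divide after leaving the stem cell zone, were picked out of 2 single-cell RNA libraries of mouse small intestine. Neither their place in the crypt nor their division was measured. A cell belonged to this population when it showed transcripts of at least 3 of 8 cell cycle genes (Mki67, Top2a, Birc5, Ube2c, Cdc20, Ccnb1, Cenpf and Pclaf), fewer than 5 Olfm4 transcripts per 10000, under 1% goblet cell transcripts (Muc2, Tff3, Zg16, Fcgbp, Clca1 and Spink4 together), at least 1 Epcam transcript and no transcript of Cd3e, Cd3g or Ptprc. These criteria found 215 cells among the 8624 that passed quality limits, 64 of 3069 in the library of adip fl/fl mice and 151 of 5555 in that of adip fl/fl-Villi-Cre animals. The expression of the genes just named was fixed by that choice and is given below only as a description.

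The libraries were made with the droplet-based 3′ method from crypt-enriched small intestinal epithelium, and transcripts were counted as unique molecular identifiers (UMIs), so that copies of 1 molecule count as 1. Both groups carry the loxP-flanked adiponectin gene (adip fl/fl), and the second adds Villi-Cre, a Cre recombinase under the villin promoter, which is active along the whole intestinal epithelium and not in Paneth cells alone. The animals are described as a pooled sample of 8-week-old males, n = 6, which does not say whether that number stands behind each library or both. With 1 library for each genotype, every difference between genotypes below is a difference between 2 libraries, and the 95% intervals cover counting error only.

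The targeted gene could not check the labels. Adipoq, the gene of adiponectin, had 1 UMI in all 9791 barcodes of the adip fl/fl library and 0 in all 11838 of the Villi-Cre library, and in the cycling cells it had 0 in both. At 1943060 and 4058780 UMIs, a count of 0 allows a level of up to 1.54 and 0.739 CPM (UMIs of a gene per 1000000 UMIs, summed over the cells of a group), so a difference in Adipoq was not detectable at this depth. The libraries shared 31 barcode sequences, 1 of which was that of a cycling cell of the adip fl/fl library and none that of a cycling cell of the Villi-Cre library.

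In the crypt, stem cells at the base divide and push their daughters upward into a transit-amplifying zone, where the daughters divide a few more times before they stop and mature on the villus. Each division passes through S phase, when DNA is copied from origins licensed by the MCM helicase, and through G2 and mitosis, when cyclin B with Cdk1 drives the cell into a spindle-built separation of its chromosomes. Olfm4 marks the stem cell zone and is lost as cells leave it, while genes of absorption rise as they approach the villus.

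The promoters of the phase genes are shown because the 2 groups of genes parted in these cells. The stretch is the 120 bases just upstream of the RefSeq start in GRCm38.p6, in the direction of the gene, and capitals mark the CHR element TTTGAA, the CCAAT box and the E2F sites TTTCCCGC and TTTGGCGC, each on either strand. Those of the G2 and M genes Hmgb2 (chr8:57511723-57511842, plus strand), Cdk1 (chr10:69352913-69353032, minus strand) and Kif11 (chr19:37376262-37376381, plus strand) hold CHR and CCAAT letters. Those of the S phase genes Mcm6 (chr1:128359706-128359825, minus strand), Hells (chr19:38930870-38930989, plus strand) and Cdca7 (chr2:72476099-72476218, plus strand) hold E2F letters. The stretch of Mcm6 holds the CCAAT box as well. The stretches of Ccnb2 (chr9:70421555-70421674, minus strand), of the G2 and M list, and Mcm5 (chr8:75109389-75109508, plus strand), of the S phase list, hold the CCAAT box alone.
Hmgb2: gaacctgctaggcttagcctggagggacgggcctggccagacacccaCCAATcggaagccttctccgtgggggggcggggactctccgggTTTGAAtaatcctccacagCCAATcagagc
Cdk1: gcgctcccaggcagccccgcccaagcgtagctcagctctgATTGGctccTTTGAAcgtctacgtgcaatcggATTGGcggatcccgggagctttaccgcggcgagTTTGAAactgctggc
Kif11: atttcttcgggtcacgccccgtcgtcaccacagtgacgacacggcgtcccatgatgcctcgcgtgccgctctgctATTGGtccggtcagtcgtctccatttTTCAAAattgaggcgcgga
Ccnb2: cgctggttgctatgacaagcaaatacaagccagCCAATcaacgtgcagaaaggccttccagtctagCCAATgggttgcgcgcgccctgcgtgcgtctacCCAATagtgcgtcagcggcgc
Mcm6: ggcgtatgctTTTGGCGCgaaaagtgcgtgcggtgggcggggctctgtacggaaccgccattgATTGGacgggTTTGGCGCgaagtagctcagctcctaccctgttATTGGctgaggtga
Hells: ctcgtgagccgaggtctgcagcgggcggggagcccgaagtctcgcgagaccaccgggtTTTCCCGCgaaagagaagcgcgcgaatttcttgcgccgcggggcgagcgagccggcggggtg
Cdca7: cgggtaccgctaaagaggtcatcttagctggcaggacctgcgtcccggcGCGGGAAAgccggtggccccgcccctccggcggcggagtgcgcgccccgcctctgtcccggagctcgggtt
Mcm5: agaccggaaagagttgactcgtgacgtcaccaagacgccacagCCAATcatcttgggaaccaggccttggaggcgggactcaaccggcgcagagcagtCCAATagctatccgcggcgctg
In the 250 bases upstream, an E2F site stood in 8 of the 30 S phase genes with a promoter in the table (26.7%), in 0 of 37 G2 and M genes, in 407 of all 27025 promoters (1.51%) and in 3.56% of the 3009 promoters of genes compared with Olfm4-high cells. CHR letters stood in 11 of the 37 G2 and M genes (29.7%), in 6 of the 30 S phase genes (20%), in 18.3% of all promoters and in 13.03% of those of the genes compared. The CCAAT box was in 27 of 37 (73.0%), 20 of 30 (66.7%), 37.5% and 40.9%, respectively. These are matches of letters, not measured binding.

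The genes of the choice, given as a description, were detected in most of the cells. Mki67, the Ki-67 antigen of dividing cells, was detected in 58 of 64 adip fl/fl cells (90.6%) and 131 of 151 Villi-Cre cells (86.8%). Top2a, the topoisomerase that untangles chromosomes, was seen in 39 (60.9%) and 92 (60.9%), and Cdc20, the activator of the anaphase promoting complex, in 54 (84.4%) and 121 (80.1%). All 8 cell cycle genes were detected in 26 and 61 cells, while 8 and 24 cells stood at the limit with 3, and 21 and 37 cells with 2 fell just outside it. The highest Olfm4 level inside the limit was 3.90 and 4.84 per 10000 UMIs, and the lowest in the cycling cells above it was 6.25 and 5.91. Olfm4 was not detected at all in 48 and 89 of the cells. The number of genes detected did not follow cell size evenly: the median cell with 8 of them held 40709 and 33183 UMIs, that with 5 held 13473 and 15983, that with 3 held 21214 and 21197.5, and that with 2, outside the population, 25017 and 25568. Over the whole population a median adip fl/fl cell held 25438.5 UMIs of 5363.5 genes, and a Villi-Cre cell 22935 UMIs of 5118 genes.

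The marker lists of other cell types given here summed to 240 CPM or less in these cells, and most lists were not at 0. The 14 T cell markers, which summed to 56935 and 61262 CPM in T cell barcodes, summed to 29.8 and 25.1 CPM, with 6 and 4 of them at 0 and Ccl5 (12.4 CPM) and Gzma (10.6 CPM) the most abundant. Paneth cell markers, among them Lyz1 and the alpha-defensins, reached 10.3 and 9.36 CPM, with 4 and 5 of 10 at 0. Goblet markers outside the gate gave 32.4 and 42.1 CPM (2 and 2 of 10 at 0, highest Creb3l1 at 11.3 and Agr2 at 15.5), enteroendocrine markers 19.6 and 26.6 (5 and 2 of 11 at 0, highest Chga at 11.8 and 16.5), and tuft markers 32.4 and 75.1 (2 and 1 of 9 at 0, highest Sh2d6 at 7.72 and Rgs13 at 23.7). The tuft sum was 2.32-fold higher in Villi-Cre (1.76-3.09), and at 71.3 and 47.2 CPM in non-cycling cells. B and plasma cell markers gave 14.9 and 25.1 CPM (2 and 3 of 7 at 0, highest Igkc at 9.26 and 14.5), fibroblast markers 2.06 and 0.246 (6 and 7 of 8 at 0) and endothelial markers 1.03 and 0 (3 and 5 of 5 at 0). The myeloid list stood at 240 and 201 CPM, nearly all of it Cd74 at 220 and 178 CPM, the invariant chain of MHC class II, which epithelium also makes, with 2 and 4 of its 10 genes at 0.

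The first comparison was with the cycling cells above the Olfm4 limit, 18 and 51 cells of similar size (median 19970 and 21478 UMIs) chosen by the same 8 genes. Of 3720 genes measured in both libraries, 241 (6.48%) were at least 2-fold higher and 152 (4.09%) at least 2-fold lower in the low-Olfm4 cells in both. The 2 populations differed widely in the transcripts of S phase, ribosome making, the stem cell zone and absorption. Olfm4 split these populations, so genes that travel with Olfm4 were bound to part to some degree, and no test was made. A gene counted as measured when the higher group reached 50 CPM, so a gene that reached it only where it is high had to differ. The counts of genes below are therefore descriptions, while the sums take in every gene of a list.

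Genes of G2 and mitosis stood at nearby levels on both sides of the Olfm4 limit. The genes listed here were not among the 8 of the choice, but both populations had been picked by those 8, so like levels follow largely from the choice. Their 47-gene list summed to 5479 CPM in the adip fl/fl cells and 5125 CPM in the Villi-Cre cells, against 6438 and 4968 CPM above the limit. The ratio was 0.851 (0.816-0.888) and 1.03 (1.00-1.06), on opposite sides of 1 in the libraries, and 0 of the 28 genes measured passed 2-fold either way. Ccnb2, a B-type cyclin, was at 205 and 191 CPM against 182 and 173. Cdk1, its kinase, was at 99.3 and 84.0 CPM against 96.7 and 96.0. Cdca3, which helps degrade the mitotic inhibitor Wee1, was at 295 and 278 CPM against 272 and 202. Cenpa, the histone of centromeres, was at 255 and 256 CPM against 322 and 258. Values on both sides of the limit thus lay close together for the cyclin, its kinase and the centromere.

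The machinery of chromosome separation was counted in the same way. None of 10 kinetochore and checkpoint genes, 9 condensin and cohesin genes, 6 anaphase promoting complex genes or 2 chromosomal passenger genes (Cdca8 and Incenp) passed 2-fold either way. With 6.48% of all genes higher and 4.09% lower, lists this short would often hold none, so these counts say little. In the spindle list, 2 of 18 were lower and none higher. Those were Stmn1, which takes microtubules apart, at 280 and 260 CPM against 806 and 790, and Tubb5, a beta-tubulin, at 192 and 219 CPM against 605 and 622. Another beta-tubulin, Tubb4b, stood at 719 and 738 CPM against 548 and 511, so the tubulins did not move together.

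S phase transcripts were far lower. The 41-gene S phase list summed to 999 and 1050 CPM in the low-Olfm4 cells against 2988 and 3272 CPM above the limit, a ratio of 0.334 (0.312-0.359) and 0.321 (0.308-0.335). Of its 21 genes measured, 16 were at least 2-fold lower and 0 higher, with a median log2 ratio of -1.67 and -1.81 against 0.05 and 0.07 over all genes. Most of these genes reached 50 CPM only above the limit, so their count was in part fixed by that minimum. In origin licensing and firing, 6 of 8 were lower, and these were the 6 subunits of the MCM helicase, Mcm2 to Mcm7. Mcm6 stood at 14.4 and 20.7 CPM against 92.1 and 100 (log2 ratio -2.68 and -2.28), and Mcm7 at 27.3 and 44.6 CPM against 120 and 140. The licensing inhibitor geminin went its own way, with Gmnn at 80.8 and 80.1 CPM against 78.3 and 125.

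At the replication fork 5 of 8 genes were lower and none higher, among them Pcna, the sliding clamp, at 73.1 and 73.7 CPM against 182 and 188. Rpa3, a subunit of the single-strand binding protein, differed little, at 96.8 and 92.1 CPM against 85.2 and 103. Of 11 nucleotide synthesis genes 7 were lower and none higher. Impdh2, the first enzyme of guanine nucleotide synthesis from IMP, was at 82.9 and 74.4 CPM against 219 and 180, and Shmt1, which feeds thymidylate synthesis with one-carbon units, at 34.5 and 48.8 CPM against 101 and 109. Among 14 chromatin genes 4 were lower, and these 4 act at newly copied DNA: Nasp and the methylation proteins Dnmt1, Uhrf1 and Hells. Nasp, a histone chaperone, was at 109 and 125 CPM against 260 and 287, and Hells, a remodeller that aids DNA methylation, at 29.8 and 35.7 CPM against 150 and 190. Hmgb2, a chromatin protein of dividing cells, stood at 1546 and 1607 CPM against 1860 and 1648.

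Among cyclins and kinases of the cell cycle, 2 of 12 were lower, Cdk4 and Cdk6, the partners of D-type cyclins in G1. Cdk4 was at 119 and 97.1 CPM against 329 and 281. Ccnd2 was at 377 and 512 CPM against 808 and 835, and Ccnd1 at 359 and 348 CPM against 419 and 412, so of these D-type cyclins Ccnd1 differed least. Trp53, the p53 gene, was at 78.2 and 85.5 CPM against 198 and 190, and Parp1, a sensor of DNA breaks, at 36.0 and 33.8 CPM against 104 and 91.5. Both were more than 2-fold lower. E2f2, an E2F family factor, lay above its Olfm4-high level, at 68.5 and 68.5 CPM against 39.1 and 29.8, without passing 2-fold in adip fl/fl.

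**Figure D1:**
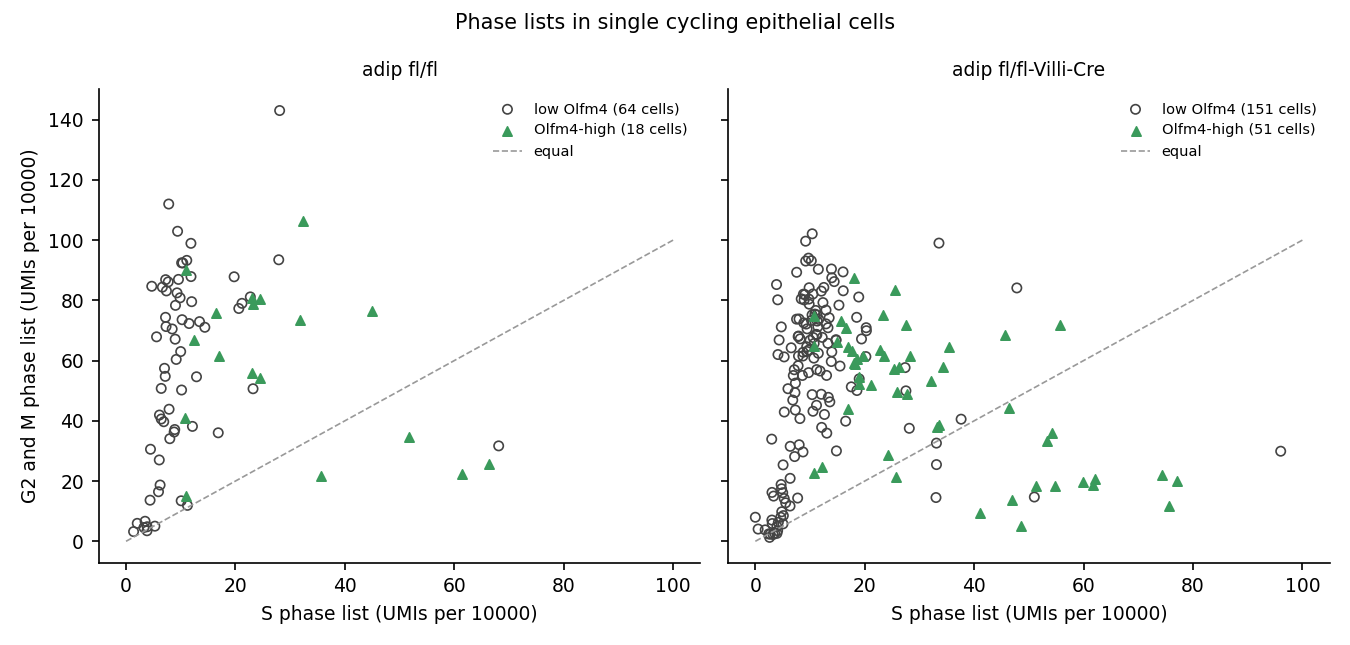
Each point is 1 cycling epithelial cell, with UMIs of the S phase list per 10000 on the x axis and of the G2 and M list per 10000 on the y axis, in adip fl/fl (left) and adip fl/fl-Villi-Cre (right). Open circles are cells with low Olfm4 and green triangles are Olfm4-high cells, and 3 of 64 and 11 of 151 open circles lie below the dashed line of equal counts, against 4 of 18 and 15 of 51 triangles.

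Single cells showed how few had more S phase than G2 and M transcripts. Such cells were 3 of 64 in adip fl/fl (4.69%, exact interval 0.977-13.1%) and 11 of 151 in Villi-Cre (7.28%, 3.69-12.7%), against 4 of 18 (22.2%, 6.41-47.6%) and 15 of 51 (29.4%, 17.5-43.8%) above the Olfm4 limit. These intervals cover counting error within 1 library only, and the shares were not tested against each other. The low-Olfm4 cells with more S phase transcripts showed a median of 5 and 3 cycling genes, against 7 and 7 in the other low-Olfm4 cells. The shares moved with the number of cycling genes asked for, to 16.5% and 17.0% with at least 2 and to 3.70% and 1.72% with at least 5. Many of these low-Olfm4 cells held few transcripts of either list: only 1 of the 3 and 5 of the 11 reached 20 S phase UMIs per 10000, while all 4 and all 15 Olfm4-high ones did. The rule bears on these shares, since 7 of its 8 genes peak in G2 and mitosis and Pclaf alone is a gene of S phase, so a cell early in S phase could pass it only with late transcripts. Its part in the difference across the Olfm4 limit was not tested. The median cell carried 8.95 and 9.78 S phase UMIs per 10000, against 23.8 and 25.9 above the limit, and 65.1 and 61.2 G2 and M UMIs, against 64.2 and 53.3.

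Transcripts for building ribosomes were lower too. The ribosome biogenesis list summed to 2880 and 2667 CPM against 5768 and 5667, a ratio of 0.499 (0.476-0.524) and 0.471 (0.457-0.485), with 5 of 14 genes at least 2-fold lower and none higher. Ncl, nucleolin, was at 600 and 562 CPM against 1554 and 1331, and Npm1, nucleophosmin, at 824 and 721 CPM against 1673 and 1769. Myc, the factor that drives these genes in growing cells, was at 13.9 and 14.04 CPM against 73.7 and 70.7. The cytosolic ribosomal proteins themselves were less far apart, with a ratio of 0.845 and 0.723 over the list and 0 of 82 genes past 2-fold.

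Genes of the stem cell zone were lower in sum. The list of stem cell and Wnt target genes stood at 321 and 382 CPM against 2435 and 2437. The 12 genes measured were each at least 2-fold lower, but in adip fl/fl none of them reached 50 CPM in the low-Olfm4 cells, where Slc12a2 was highest, so they were measured only through the Olfm4-high cells and that count was largely fixed by the minimum. Slc12a2, an ion cotransporter of the crypt base, was at 47.3 and 62.1 CPM against 909 and 926 (log2 ratio -4.26 and -3.90). Sox9, a crypt transcription factor, was at 25.7 and 31.5 CPM against 177 and 168. Axin2, the feedback inhibitor of Wnt signalling, was at 18.0 and 30.8 CPM against 157 and 128, and Ephb2, the receptor that holds cells in the crypt, at 38.1 and 37.0 CPM against 96.7 and 92.3. Each of these genes was low in both libraries, with the libraries furthest apart for Axin2, and the list was still above its level of 142 and 114 CPM in non-cycling cells.

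Signals of the Notch pathway and its targets were mixed. Sox4 (57.6 and 38.4 CPM against 256 and 320), the receptor Notch1 (15.4 and 18.5 CPM against 73.7 and 82.6) and Hes6 were lower, 3 of 5 genes measured, where 4.09% of all genes were. Notch1 reached 50 CPM only above the Olfm4 limit, as did Sox4 in Villi-Cre, so this count was in part fixed by that minimum. Krt19, a keratin placed in the list as a marker of the progenitor zone, was higher, at 2565 and 2396 CPM against 914 and 947. Hes1, the repressor by which Notch holds back the secretory fate, was at 145 and 129 CPM against 200 and 266.

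**Figure D2:**
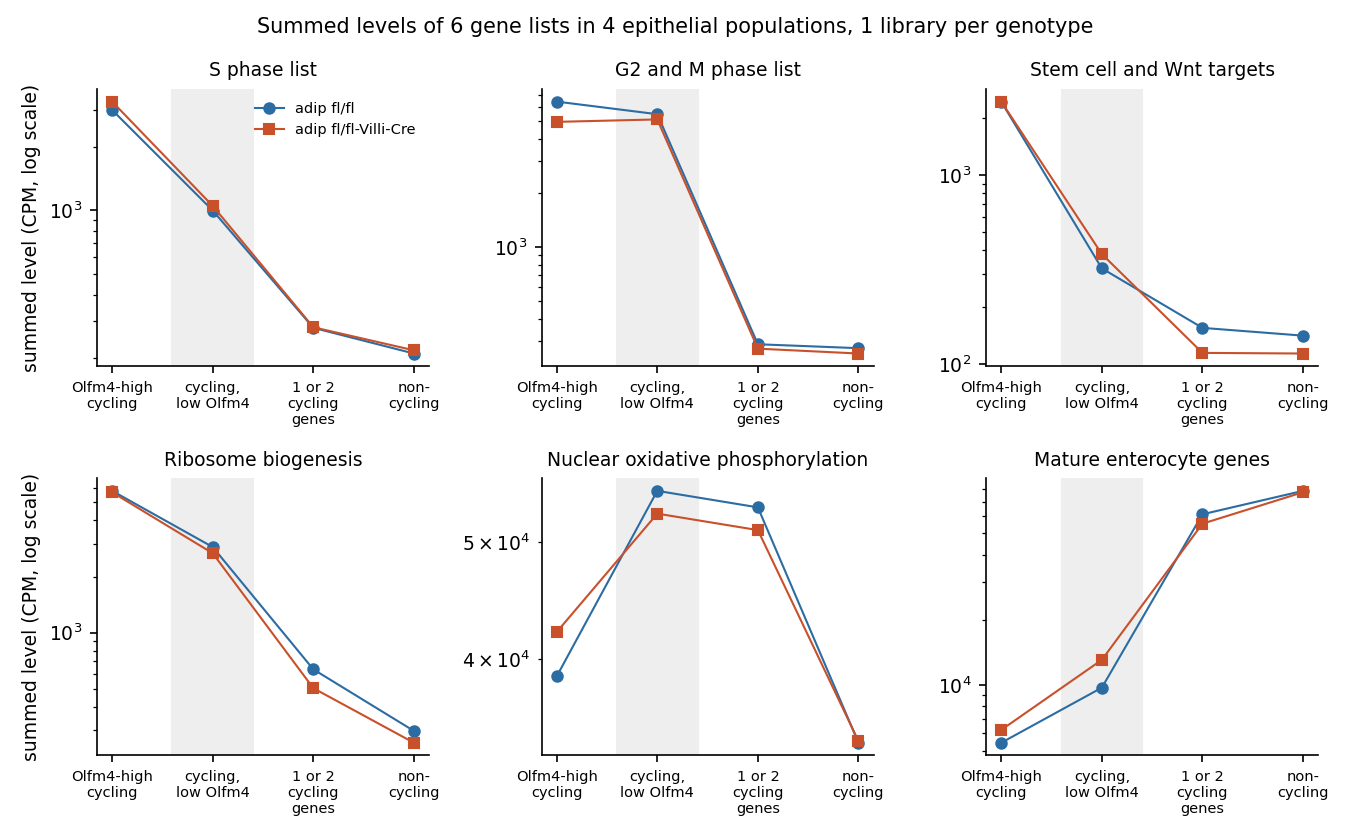
Summed level of 6 gene lists (y axis, CPM on a log scale) in Olfm4-high cycling cells, cycling cells with low Olfm4 (shaded), cells with 1 or 2 cycling genes and non-cycling cells with low Olfm4 (x axis). Blue circles are adip fl/fl and red squares adip fl/fl-Villi-Cre, 1 library each, and in adip fl/fl the shaded cells and the Olfm4-high cells, both picked by G2 and M genes, are at 5479 and 6438 CPM of the G2 and M list and at 321 and 2435 CPM of the stem cell list.

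Genes of the absorptive lineage were higher than above the Olfm4 limit. Of 18 mature enterocyte genes measured, 13 were at least 2-fold higher and none lower, with a median log2 ratio of 1.39 and 1.60 against 0.05 and 0.07 over all genes. The list summed to 9745 and 13089 CPM, against 5432 and 6225 in Olfm4-high cells and 78580 and 77458 in non-cycling cells. Sis, the brush border sucrase-isomaltase, was at 515 and 789 CPM against 52.9 and 90.8. Fabp2, the intestinal fatty acid binding protein, was at 1043 and 1362 CPM against 509 and 651. Free RNA leaks into every droplet, and T cell barcodes, which should hold none of these transcripts, showed 50.3 and 90.1 CPM of Sis. In those barcodes, of 4081.5 and 3589 median UMIs, the whole list stood at 2939 and 3736 CPM, and its part in the sums of the cycling cells was not tested.

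Cdkn2b and Car4 were detected in most low-Olfm4 and few Olfm4-high cells, with overlap. Cdkn2b, the G1 kinase inhibitor p15, stood at 133 and 145 CPM against 6.91 and 7.44 in Olfm4-high cells (log2 ratio 4.27 and 4.28). It was detected in 52 of 64 and 120 of 151 low-Olfm4 cells, against 2 of 18 and 6 of 51 above the limit, and T cell barcodes had 0 and 1.84 CPM. In cells with 1 or 2 cycling genes it was at 145 and 154 CPM and in non-cycling cells at 95.3 and 84.7 CPM. With a mitochondrial limit of 10% the log2 ratio to non-cycling cells moved from 0.48 and 0.77 to -0.20 and 0.03, so their order depends on that limit. Car4, a membrane carbonic anhydrase, was at 172 and 170 CPM against 9.21 and 10.4, and in non-cycling cells at 51.6 and 61.6. Car4 was detected in 48 of 64 and 113 of 151 cells, against 3 of 18 and 10 of 51. Cdkn2b was the only one of the 3 cell cycle inhibitors measured that passed 2-fold. Cdkn1a, the p21 inhibitor, lay at 129 and 136 CPM against 163 and 39.4, in opposite directions in the libraries, and Rb1, the retinoblastoma gene, at 48.9 and 62.6 CPM against 27.6 and 23.1.

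**Figure D3:**
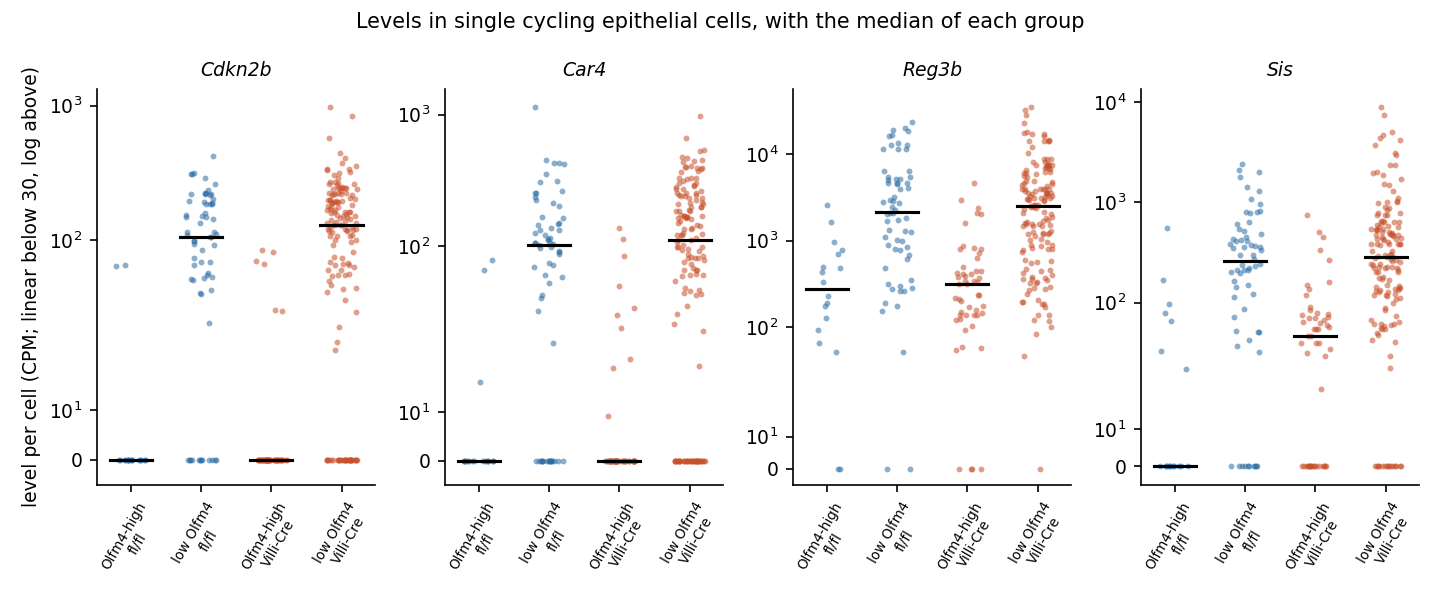
Levels of Cdkn2b, Car4, Reg3b and Sis in single cycling epithelial cells (y axis, CPM per cell, linear below 30 and log above), with each point 1 cell and the black line the group median. Olfm4-high and low-Olfm4 cells of each library are side by side, and Cdkn2b was detected in 52 of 64 and 120 of 151 low-Olfm4 cells against 2 of 18 and 6 of 51 Olfm4-high cells.

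Antibacterial and absorptive genes led the differences outside the lists. Reg3b, a secreted antibacterial lectin, was at 5711 and 5217 CPM against 488 and 546, and its relative Reg3a at 115 and 113 CPM against 2.30 and 6.70. Both were higher still in cells with 1 or 2 cycling genes, at 13797 and 16466 CPM for Reg3b. Reg3a shares sequence with the other Reg3 genes, so its counts are uncertain. Apol10a, of the apolipoprotein L family, was at 429 and 404 CPM against 18.4 and 30.5, and Mogat2, which rebuilds fat from absorbed monoacylglycerol, at 63.8 and 90.2 CPM against 6.91 and 9.67. St3gal4, a sialyltransferase, was at 694 and 585 CPM against 43.7 and 73.7, and Chp2, a calcium-binding EF-hand protein, at 220 and 196 CPM against 9.21 and 17.9. Among the enterocyte transcription factors 2 of 12 were higher and none lower, a number too small to set against the 6.48% and 4.09% of all genes. Maf was at 179 and 229 CPM against 32.2 and 34.2, and Hnf4g, a nuclear receptor of enterocytes, at 173 and 191 CPM against 32.2 and 46.9. Klf5, a factor of proliferating crypt cells, was at 1133 and 991 CPM against 686 and 647, and non-cycling cells had 400 and 348.

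Genes outside the lists were lower as well. Clca3b was at 150 and 218 CPM against 1310 and 1132. Aqp4, a water channel of the crypt base, was at 11.8 and 10.8 CPM against 87.5 and 104, and Ifitm3, an interferon-induced membrane protein, at 12.9 and 16.01 CPM against 147 and 183. The beta-tubulin Tubb2b was at 0.515 and 1.23 CPM against 55.2 and 61.8, below the floor in adip fl/fl. Each of these genes was low in both libraries.

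Energy transcripts were higher in sum than above the Olfm4 limit. Nuclear genes of oxidative phosphorylation summed to 55171 and 52824 CPM, against 38719 and 42139 above the Olfm4 limit and 34115 and 34220 in non-cycling cells. Cells with 1 or 2 cycling genes were close to the cycling cells, at 53459 and 51188 CPM. The ratio to the Olfm4-high cells was 1.42 (1.402-1.45) and 1.25 (1.24-1.27), while 0 of 76 genes passed 2-fold, with a median log2 ratio of 0.50 and 0.32. Transcripts made in the mitochondria themselves did not follow this course: the 13 genes summed to 32490 and 36566 CPM, against 31011 and 30234 in Olfm4-high and 56297 and 57491 in non-cycling cells. The share of mitochondrial UMIs, a sign of cell damage as well as of cell type, had a median of 4.46% and 5.10% in these cells, against 19.5% and 19.2% in non-cycling cells, and its part in the comparison with non-cycling cells was not tested.

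Against the 1884 and 3552 non-cycling epithelial cells with low Olfm4, the cycling cells differed in far more genes. Of 3938 genes measured, 1226 (31.1%) were at least 2-fold higher, 8 of them the genes of the choice, and 619 (15.7%) at least 2-fold lower. With a mitochondrial limit of 10% the higher genes numbered 729 and the lower ones 464. The non-cycling cells were smaller, with a median of 4202 and 4096 UMIs, and over the genes measured the median log2 ratio was 0.39 in both libraries, so values here are to be read against that shift. Of 25 G2 and M genes 24 were higher, which follows from the choice. All 12 ribosome biogenesis genes measured were higher (median log2 ratio 3.32 and 3.61), as were 80 of 82 cytosolic ribosomal proteins (2.21 and 2.23). Of 76 nuclear oxidative phosphorylation genes 14 were higher (0.77 and 0.71), a smaller share than the 31.1% of all genes. Npm1 stood at 93.3 and 77.0 CPM in non-cycling cells and Stmn1 at 3.39 and 3.27, so both were many-fold higher in the cycling cells even though they were lower there than above the Olfm4 limit.

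The 10 leading genes outside the lists were Cdkn3, Melk, Kcnn4, Myb, Fgfbp1, Rcc2, Lyar, Ccdc34, Gvin-ps1 and Clca3b. All 10 reached 50 CPM only in the cycling cells, so they were measured only where they were high. Cdkn3, a phosphatase of cyclin-dependent kinases, was at 99.8 and 88.9 CPM against 0.694 and 0.503. Myb, a transcription factor of crypt progenitors, was at 114 and 92.1 CPM against 2.54 and 1.68 in non-cycling cells, and Fgfbp1, a carrier of fibroblast growth factors, at 155 and 173 CPM against 3.78 and 3.14. Ccdc34 was at 337 and 301 CPM against 11.3 and 9.18. Of these 4, the smallest ratio was that of Ccdc34 in adip fl/fl, at 29.96-fold. Gvin-ps1, at 787 and 717 CPM against 18.3 and 26.4, is annotated as a pseudogene, and its reads cannot be told from those of its family.

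Of 23 mature enterocyte genes 20 were lower than in non-cycling cells and 2 higher, with a median log2 ratio of -3.68 and -2.95. Apoa1, the main apolipoprotein of intestinal lipid particles, was at 598 and 1923 CPM against 23722 and 23119. The 2 higher ones were Car4 and Cps1, the latter the mitochondrial carbamoyl phosphate synthetase. Cps1 went against most of its list on both sides, at 1241 and 1299 CPM in Olfm4-high cells, 725 and 712 CPM in these cells and 50.01 and 56.3 CPM in non-cycling cells. Of the enteroendocrine markers 5 of 5 measured were lower, where 15.7% of all genes were, and the choice of non-cycling cells had not removed hormone cells. All 11 markers together summed to 19.6 and 26.6 CPM in the cycling cells. The 5 were thus measured only through the non-cycling cells, and their count was largely fixed by the 50 CPM minimum. Outside the lists Reg4 led, at 0 and 1.48 CPM against 277 and 196, followed by Nts, neurotensin, and Sct, secretin, the latter at 7.72 and 13.8 CPM against 904 and 443. Cubn, the cubilin receptor of absorptive cells, came further down, at 3.09 and 9.12 CPM against 222 and 171. The others of the 10 were Ptprr, Slc5a12, Plb1, Ly6m, Clca4a and Unc93a2. Of the 10, only Ly6m and Clca4a reached 50 CPM in the cycling cells, in Villi-Cre alone, so the rest were measured only through the non-cycling cells.

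Some genes were higher in the cycling low-Olfm4 cells than in both the Olfm4-high and the non-cycling cells. Measured against both neighbours in both libraries, 19 genes were at least 2-fold higher and 2 at least 2-fold lower, while 31 lay above non-cycling and below Olfm4-high cells and 87 the other way round. Of all genes measured, 31.1% were higher and 15.7% lower than in non-cycling cells, and 6.48% and 4.09% than in Olfm4-high cells. Whether the 19 exceed what these shares would give was not tested. Some of them, such as Gsdmc2 and Nqo1, reached 50 CPM only in the cycling low-Olfm4 cells, so the count was in part fixed by that minimum. Gsdmc2, a gasdermin, led by the smallest of its 4 ratios, 8.96: it was at 111 and 100 CPM, against 6.91 and 11.2 in Olfm4-high and 4.55 and 6.54 in non-cycling cells, and 0 in T cell barcodes of both libraries. In cells with 1 or 2 cycling genes Gsdmc2 had already fallen to 37.4 and 23.8 CPM. Apart from Gsdmc2, Car4 and Krt19, the genes named next were chosen after their values were seen. Gsdmc4, of the same family, was at 206 and 175 CPM against 9.21 and 32.0 and against 12.8 and 14.5. The gasdermin C genes resemble each other, and how reads were divided among them is uncertain. Rbp7, a retinol binding protein, was at 194 and 138 CPM against 50.6 and 23.1 and against 5.78 and 6.41. The quinone reductase Nqo1 was at 59.7 and 67.8 CPM against 9.21 and 10.4 and against 13.8 and 14.7. Pgd, an NADPH-making enzyme of the pentose phosphate pathway, was at 361 and 372 CPM against 168 and 177 and against 159 and 177, and Elovl6, a fatty acid elongase, at 248 and 238 CPM against 46.0 and 94.5 and against 75.4 and 71.6. Each of these genes was higher in the cycling low-Olfm4 cells of both libraries than in either neighbour. The 2 lower than both were H2-Aa and H2-Eb1, chains of MHC class II, named after their values were seen. H2-Aa was at 11.8 and 14.04 CPM, against 52.9 and 56.6 in Olfm4-high and 80.6 and 81.5 in non-cycling cells.

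The receptors for the targeted hormone were present. Adipor1 stood at 140 and 131 CPM, against 85.2 and 103 in Olfm4-high and 103 and 98.1 in non-cycling cells. Adipor2 was at 191 and 177 CPM, against 71.4 and 73.7 and against 368 and 316, and was the only one of 3 genes of the adiponectin and AMPK list measured to pass 2-fold over the Olfm4-high cells, where 6.48% of all genes did. Between the libraries 0 of 4 members of that list passed 1.5-fold and 0 of 7 of the PI3K-Akt-mTOR core, where 1.6% of all genes were that much higher and 0.413% lower, so none of these small counts says much about the lists. The ratio of the sums of the PI3K-Akt-mTOR core was 1.00 (0.956-1.05). This list describes transcripts of the pathway's components and not its activity.

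The cells varied along the number of cycling genes they showed. From 3 or 4 genes through 5 or 6 to 7 or 8, groups of 10, 13 and 41 cells in adip fl/fl and 35, 34 and 82 in Villi-Cre, the ribosome biogenesis list went from 1699 through 2597 to 3172 CPM and from 1368 through 2562 to 3154. The G2 and M list was at 714, 3027 and 6918 CPM and at 927, 4040 and 6891. The S phase list was at 404, 1255 and 1067 CPM and at 610, 1124 and 1187, so in both libraries it was lowest in the cells with fewest cycling genes. Mature enterocyte transcripts ran the other way, at 16855, 8623 and 8549 CPM and at 26398, 12292 and 8593. Cdkn2b varied less with this number: it was at 144, 130 and 131 CPM and at 171, 133 and 138. The number of cycling genes is part of the choice, so this is a description of the cells near its edge.

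**Figure D4:**
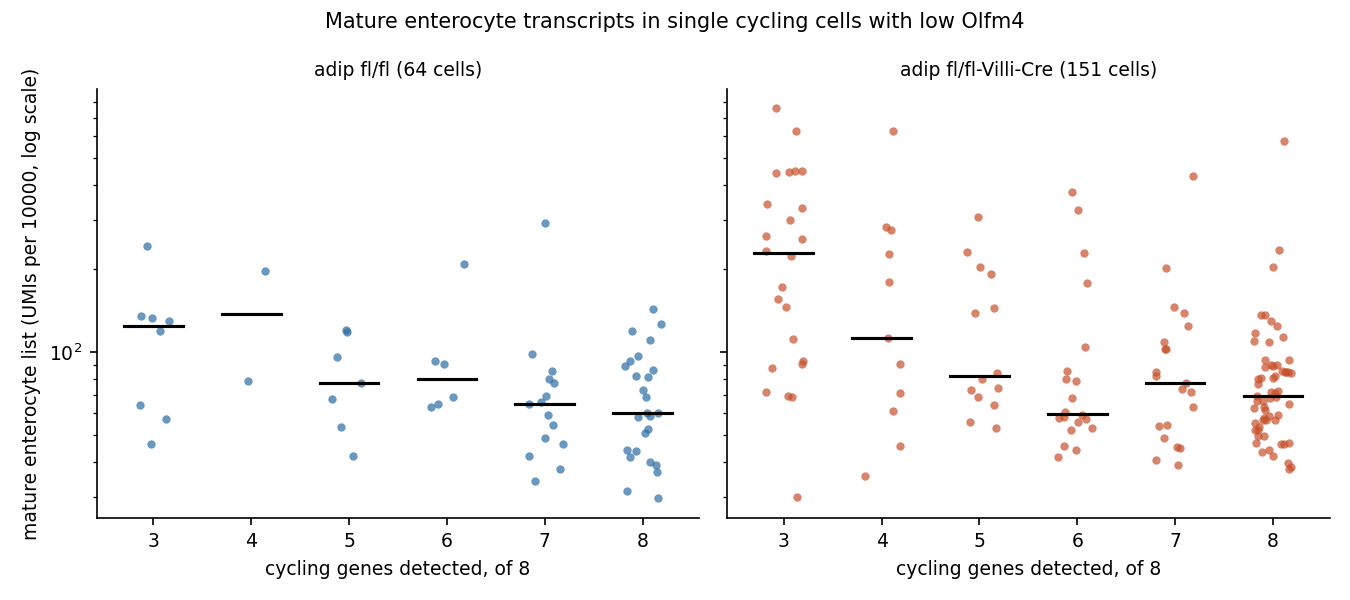
Mature enterocyte transcripts (y axis, UMIs of the 23-gene list per 10000, log scale) in each cycling cell with low Olfm4, by the number of the 8 cycling genes detected (x axis), in adip fl/fl (left, 64 cells) and adip fl/fl-Villi-Cre (right, 151 cells). Black lines are medians, and the highest adip fl/fl cell is at 292 while 15 Villi-Cre cells lie above it, 9 of them with 3 cycling genes.

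Cells with some Olfm4 differed from those with none also below the limit. In the 16 and 62 cells with some Olfm4 the S phase list was at 1436 and 1296 CPM, against 827 and 822 CPM in the 48 and 89 cells with none, and the stem cell list at 434 and 502 CPM against 277 and 271. Cells just inside the limit, with 2.5 to 5 Olfm4 UMIs per 10000, numbered 3 and 8, and their Slc12a2 was at 129 and 257 CPM, while the 4 and 8 cells just outside it, at 5 to 10, had 276 and 445 CPM. Cdkn2b was at 57.3 and 19.1 CPM just inside and 29.1 and 38.1 CPM just outside. The S phase list was at 3364 and 2287 CPM just inside and 2372 and 3240 CPM just outside, and the mature enterocyte list at 4051 and 16530 against 5195 and 4364. Slc12a2 was thus lower just inside the limit than just outside it in both libraries, while the S phase list, the mature enterocyte list and Cdkn2b had no common direction, in groups of few cells.

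The share of cells in the population was 2.09% of cells passing quality limits in adip fl/fl (exact interval 1.61-2.66%) and 2.72% in Villi-Cre (2.31-3.18%), a ratio of 1.30 (0.967-1.77), so the interval of the ratio included 1. Among epithelial barcodes it was 2.69% and 3.23%, a ratio of 1.20 (0.892-1.64). Against all barcodes the ratio was 1.95 (1.45-2.66), but 4670 and 4263 barcodes had been set aside by the mitochondrial limit, a larger part of the adip fl/fl library. With the mitochondrial share taken from the 13 mitochondrial protein-coding genes, 68 and 154 cells met the criteria and the ratio of shares was 1.78. That value lies above 1.77, the upper end of the interval given first. After every cell was thinned to 2000 UMIs, which left out 179 and 296 shallower cells, 36 of 2890 cells (1.25%) and 85 of 5259 (1.62%) remained in the population. Since each genotype is 1 pooled library, genotype, animals and library preparation cannot be told apart.

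Between the genotypes, the number of genes that differed in the cycling cells with low Olfm4 depended on how they were counted. Of 3633 genes measured, 58 (1.6%) were at least 1.5-fold higher and 15 (0.413%) at least 1.5-fold lower in the Villi-Cre library, and 4 of the 58 were goblet genes of the choice (Tff3, Zg16, Muc2 and Fcgbp). With cells weighted equally the numbers were 91 and 50, and with a minimum of 20 CPM they were 167 and 104. In non-cycling cells the same fold was passed by 1.49% and 0.86% of 3024 genes, and in the smaller Olfm4-high group by 3.79% and 7.81% of 3801. Cell cycle lists showed small differences. The G2 and M list summed to 0.935-fold (0.914-0.958) in Villi-Cre and the S phase list to 1.05-fold (0.996-1.11), and the 8 genes of the choice to 0.837-fold (0.806-0.870). Of 30 G2 and M genes Kif11 passed 1.5-fold, of 6 S phase genes 0 and of 3 histone genes 1, H2ac24. At the shares over all genes, lists this short would be likely to hold no such gene, so these counts say little. The median log2 ratio was -0.16 over the G2 and M list and -0.01 over all genes.

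Genes of the absorptive lineage made up the largest named group of the higher ones. Of 20 mature enterocyte genes measured in the cycling cells, 10 were at least 1.5-fold higher in Villi-Cre and none lower. Of these 10, Lct, the brush border lactase, and Ada reached 50 CPM only in Villi-Cre, where they were higher, so the count was in part fixed by that minimum. In non-cycling cells 1 of 23 passed, Ada. The sum of the list was 1.34-fold higher (1.32-1.37) in cycling and 0.986-fold in non-cycling cells. The list was at 16855 and 26398 CPM in the 10 and 35 cells with 3 or 4 cycling genes, at 8623 and 12292 CPM in those with 5 or 6, and at 8549 and 8593 CPM in the 41 and 82 cells with 7 or 8. By cell the ratio of medians was 1.16, and the 15 Villi-Cre cells above the highest adip fl/fl cell held 33.1% of the sum over that library's cells. Of all 58 higher genes, 42 were ones that the cycling cells held at least 2-fold below non-cycling cells in both libraries. Of the 3938 genes measured against non-cycling cells, 15.7% were that much lower. In adip fl/fl 19 of the 58 and in Villi-Cre 10 were at or below their level in T cell barcodes. The share of all genes at or below those barcodes was not counted, so these 2 counts cannot be set against it.

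Apoa1 was the most abundant of the 8 genes with the largest ratios. It stood at 598 CPM in the adip fl/fl and 1923 CPM in the Villi-Cre cycling cells, 3.22-fold higher (3.02-3.42), while T cell barcodes had 602 and 954 CPM. T cell barcodes held far fewer UMIs (median 4081.5 and 3589 against 25438.5 and 22935), so a like amount of free RNA makes up a larger share of them, and their CPM is no direct measure of the background in the cycling cells. The part of free RNA in the Apoa1 difference was not tested. Against Olfm4-high cells, at 983 and 1149 CPM, it was lower in adip fl/fl and higher in Villi-Cre. By cell the groups overlapped, with medians of 340 and 592 CPM. The highest adip fl/fl cell was at 4439 CPM, and the 23 of 151 Villi-Cre cells above it held 58.0% of the summed Apoa1 levels of that library. Apoa1 was highest where cycling genes were fewest, at 3953 CPM in Villi-Cre cells with 3 or 4 of them, 2181 with 5 or 6 and 1139 with 7 or 8, against 1190, 275 and 544 in adip fl/fl.

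The other genes among the 8 largest ratios differed in level and in their ratios in non-cycling cells. Apoa4, another apolipoprotein, was at 190 and 591 CPM, 3.10-fold higher (2.78-3.47), with 237 and 338 CPM in T cell barcodes. Guca2a, the precursor of guanylin, was at 10.8 and 52.2 CPM, 4.83-fold higher (3.08-7.97), with 11.7 and 9.19 CPM in T cell barcodes. Slc15a1, the peptide carrier PEPT1, was at 18.5 and 79.8 CPM, 4.31-fold higher (3.05-6.26), with 15.1 and 33.1 CPM in T cell barcodes. Ada, adenosine deaminase, was at 29.8 and 108 CPM, 3.62-fold higher (2.74-4.84), with 48.7 and 86.4 CPM in T cell barcodes. Of its level in Villi-Cre, 62.1% of the sum over cells came from 14 cells above the highest adip fl/fl cell. Selenop, the selenium carrier, was at 94.7 and 308 CPM, 3.25-fold higher (2.78-3.82), with 369 and 228 CPM in T cell barcodes. Ly6m, of the Ly6 family, was at 23.7 and 87.5 CPM, 3.69-fold higher (2.71-5.14), and Clca4a at 27.8 and 100.3 CPM, 3.61-fold higher (2.71-4.89), with 20.1 and 90.1 CPM and 30.2 and 58.8 CPM in T cell barcodes. Of these 8 genes, 4 were higher in Villi-Cre in non-cycling cells too: Ly6m by 1.59-fold, Ada by 1.56-fold, Clca4a by 1.43-fold and Slc15a1 by 1.38-fold. Guca2a was at 0.818-fold there, and Apoa1, Apoa4 and Selenop were between 0.942-fold and 0.975-fold. In Olfm4-high cells Guca2a was 4.63-fold higher in Villi-Cre (2.04-12.98) and Slc15a1 2.26-fold (1.07-5.50), at 13.8 and 64.0 CPM and 18.4 and 41.7 CPM. Ly6m was at 1.45-fold there, Apoa1, Apoa4 and Selenop between 1.17-fold and 1.21-fold, Ada at 1.00-fold and Clca4a at 0.704-fold. The 8 genes were chosen for their high ratios, so their shared direction follows from that choice. Of them, Guca2a, Slc15a1, Ly6m, Ada and Clca4a reached 50 CPM only in Villi-Cre. The order of the 8 genes against T cell barcodes differed from gene to gene, with Selenop in adip fl/fl well below those barcodes.

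Sis depended on the edge of the population. It was 1.53-fold higher in Villi-Cre (1.43-1.65), but at 1075, 416 and 423 CPM over the bands of cycling genes in adip fl/fl and 2253, 649 and 308 CPM in Villi-Cre. Among cells with at least 5 cycling genes the log2 ratio was -0.16, the reverse direction.

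A few transcripts were higher in cycling and non-cycling cells alike. Mt1, a metallothionein that binds zinc and copper, was at 1106 and 2648 CPM in cycling cells, 2.40-fold higher (2.29-2.51), and 5.29-fold higher in non-cycling cells, where it was at 447 and 2362 CPM. Its median per cell was 948 and 2508 CPM, and the cells overlapped, with 25 of 151 Villi-Cre cells above the highest adip fl/fl cell. By band it was at 1053, 1353 and 1067 CPM against 2881, 3062 and 2459, so it did not depend on the cells near the edge. The mitochondrial transcript mt-Nd3, a complex I subunit, was at 405 and 1031 CPM, 2.55-fold higher (2.36-2.75), and 2.39-fold higher in non-cycling cells, with 149 and 358 CPM in T cell barcodes. It was the only 1 of 11 mitochondrial genes measured that passed 1.5-fold. Sec61g, a subunit of the translocon, was at 63.8 and 114 CPM, 1.78-fold higher (1.46-2.19), and 2.08-fold in non-cycling cells, with 47.0 and 112 CPM in T cell barcodes. Mt1 was at 57.1 and 131 CPM in T cell barcodes, where transcripts of T cells and free RNA cannot be told apart.

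Of the 58 higher genes, 57 were measured in non-cycling cells and 15 were at least 1.5-fold higher there too, where 1.49% of all genes were. Agr2, a protein disulfide isomerase of secretory cells, was below the level for measurement in the cycling cells, at 3.60 and 15.5 CPM, with 1.68 and 25.7 CPM in T cell barcodes. The 6 goblet genes of the choice summed to 188 and 485 CPM in the cycling cells and 269 and 840 CPM in T cell barcodes, while the 10 goblet markers outside the choice were at 32.4 and 42.1 CPM in the cycling cells and 97.3 and 90.1 CPM in T cell barcodes.

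**Figure D5:**
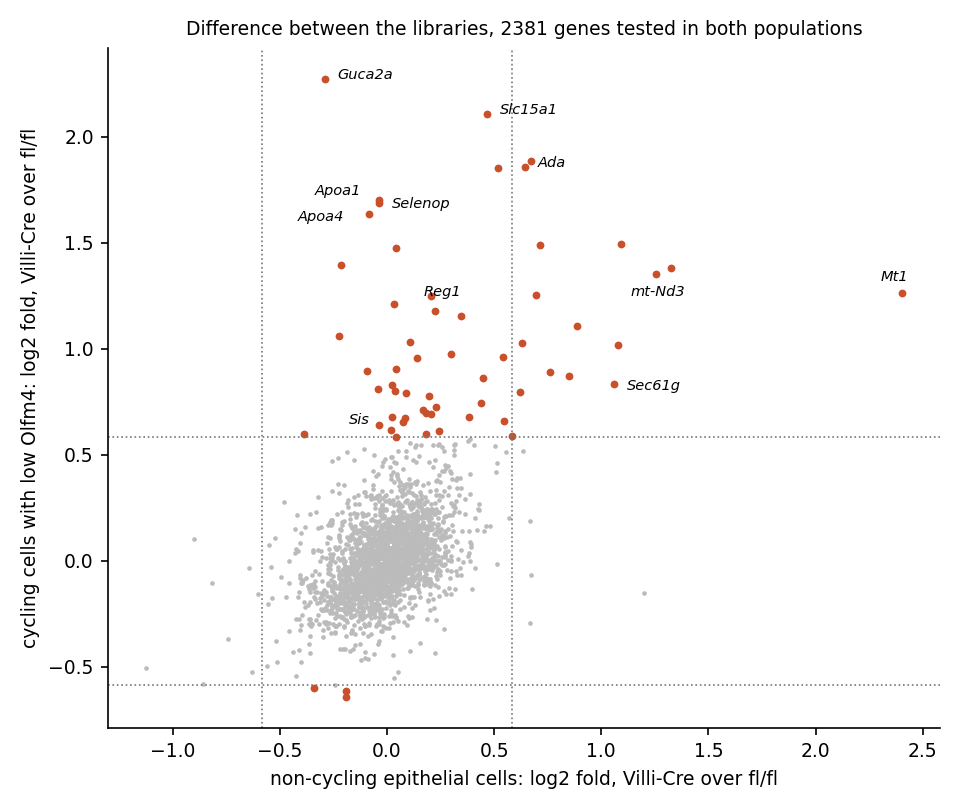
Log2 ratio of Villi-Cre over adip fl/fl for 2381 genes measured in both populations, in non-cycling cells (x axis) and in cycling cells with low Olfm4 (y axis), with dotted lines at 1.5-fold and the 60 genes past it in the cycling cells in red. Apoa1, Apoa4, Selenop and Guca2a lie high on the y axis near or left of 0 on the x axis, while Mt1, mt-Nd3 and Sec61g are high on both.

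The 15 lower genes were at modest levels. Ide, the insulin-degrading enzyme, was at 101 and 53.0 CPM, 0.525-fold (0.431-0.641). It was also lower in non-cycling cells, at 42.5 and 19.9 CPM, under the level for measurement, and in T cell barcodes, at 129 and 49.6 CPM. Slc28a3, a nucleoside carrier, was at 59.7 and 32.0 CPM, 0.537-fold. Kif11, the kinesin that pushes spindle poles apart, was at 92.6 and 58.6 CPM, 0.633-fold (0.519-0.773), and in Olfm4-high cells at 94.4 and 72.2 CPM. Mettl1, a tRNA methyltransferase, was at 53.5 and 33.8 CPM, 0.631-fold (0.485-0.822). The others of the 8 lowest ratios were Smap2 at 0.590-fold, 2300009A05Rik at 0.617-fold, Rprd2 at 0.637-fold and Zfc3h1 at 0.640-fold. Of the 8, all but Ide and Kif11 reached 50 CPM only in adip fl/fl, where they were higher. The count of lower genes was thus in part fixed by that minimum. Only 3 of the 15, Bod1l, Dcaf11 and Kif2a, were abundant enough to measure in non-cycling cells, and 0 of them passed 1.5-fold there. The groups differed by less than 2-fold for each of these genes.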

How the data were processed

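Single cells of small intestinal epithelium were measured in 1 library for each genotype. The authors converted reads with bcl2fastq (version 5.0.1), aligned them to mm10 and counted them with Cell Ranger (7.1.0 per the file headers), and deposited UMI counts for 55357 genes in 9791 and 11838 barcodes, with no cell annotation. Strand and multi-gene settings are not given in the sources used here, and 79 gene symbols occur more than once. The columns were used as deposited, with no other per-sample columns.

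Barcodes with more than 500 genes and under 25% of UMIs from genes starting mt- were kept, after the limits in the study's methods (3069 and 5555, with 25687700 and 48895100 UMIs in place of 42150600 and 63370800). The study retained more cells than these limits leave here. Olfm4-high cycling cells met the same marker criteria above the Olfm4 limit, non-cycling cells showed 0 of the 8 genes, and T cell barcodes had at least 2 UMIs of Cd3e, Cd3g and Ptprc together and neither cycling genes nor Epcam. Scrublet in scanpy 1.11.5 called 3 and 2 doublets, too few to have worked, and its calls were not used.

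Counts were summed over the cells of each population in each library and scaled to 1e+06 (CPM). A gene was measured where it had at least 50 CPM in the higher group and 20 UMIs in both together. Ratios carry exact conditional Poisson intervals and shares exact Clopper-Pearson intervals, at 95%, for counting error only. With 1 library per genotype there is no test and no p-value. A genotype difference is a ratio of at least 1.5, and a difference between populations at least 2 in both libraries. The floor of a count of 0 is 3 UMIs. Tools were matplotlib 3.10.9, pandas 2.3.3, scipy 1.17.1 and numpy 2.4.6 under Python 3.11.15, and the ratios were tested on simulated data. Promoters came from RefSeq (GRCm38.p6), and mm10 is the same assembly.

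The population, its limits and the gene lists were chosen with earlier results of these data known. Genes to be named were drawn from up to 4 of the most abundant and 4 of the most different of each list, the 8 largest differences in each direction between genotypes, and the 10 largest outside the lists in each direction between populations. Not all of these are named, and other genes named were chosen after their values were seen.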

Additional observations from a re-analysis of the deposited data

Results flagged for a closer look

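Among the individually named genes past 1.5-fold between genotypes, 5 had a ratio of Villi-Cre over adip fl/fl on opposite sides of 1 in the cycling cells with low Olfm4 and in non-cycling cells. The difference between these ratios was not tested. Apoa1 was 3.22-fold in cycling and 0.975-fold in non-cycling cells, and Apoa4 3.10-fold and 0.942-fold. Guca2a was 4.83-fold and 0.818-fold, and Selenop 3.25-fold and 0.974-fold. In Olfm4-high cycling cells the ratio was 4.63 for Guca2a, 1.17 for Apoa1, 1.19 for Apoa4 and 1.21 for Selenop. Mettl1 went the other way, at 0.631-fold and 2.08-fold, with 0.848 and 1.76 CPM in non-cycling cells, where it was too low to measure.

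Among the 4670 and 4263 barcodes removed by the mitochondrial limit, 4 in adip fl/fl and 3 in Villi-Cre met every marker criterion of the cycling cells with low Olfm4. Their median mitochondrial share was 36.6% and 31.2%, and they entered no comparison.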

How the results depend on the processing

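No paired analysis was possible because each genotype has 1 library. Over the alternatives run, the ratio of the shares of cells lay between 1.19 and 1.78, the genes higher in Villi-Cre between 40 and 167, those lower between 9 and 104, the genes higher and lower than in non-cycling cells between 729 and 2062 and between 464 and 848, and those higher and lower than in Olfm4-high cells between 192 and 379 and between 118 and 317. With a mitochondrial limit of 10% the genes higher than in non-cycling cells numbered 729. With the share taken from the 13 mitochondrial protein-coding genes the ratio of shares was 1.78. With at least 2 of 8 cycling genes, 9 genes were lower in Villi-Cre and 16.5% and 17.0% of cells had more S phase than G2 and M transcripts. With at least 5 of 8, that share in Villi-Cre was 1.72% and the log2 ratio of Sis turned to -0.16. Without the 8% of cells with the highest Scrublet scores (6 of 64 and 13 of 151 cells of the population), 25 genes were lower in Villi-Cre. With cells weighted equally, 91 were higher and 50 lower. With a minimum of 20 CPM, 167 were higher and 104 lower in Villi-Cre, 2062 were higher than in non-cycling cells, and 379 were higher and 317 lower than in Olfm4-high cells. The cause of these changes was not tested, except that the lower minimum admits more genes. Of the values of single genes under the alternatives, 520 stayed within the counting interval, 102 moved outside it and 1, that of Sis, reversed, counting as reversed only ratios past their fold limit. Smaller ratios changed sign too: in log2, Reg3b between genotypes ranged from -0.26 to 0.11 and Myc from -0.24 to 0.15, Ccnb2 over Olfm4-high cells from -0.17 to 0.52 in adip fl/fl and from -0.13 to 0.38 in Villi-Cre, and in adip fl/fl over non-cycling cells Cdkn2b from -0.20 to 1.11 and Reg1 from -0.08 to 1.78. mt-Nd3 has no value where mitochondrial genes are left out. The log2 ratio of Apoa1 between the genotypes lay between 1.12 and 1.98 and that of Mt1 between 1.19 and 1.36. Depth is a limit of the Olfm4-high comparison, with 434460 UMIs in its 18 adip fl/fl cells, and 1 library per genotype limits every comparison of genotypes.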
